A study of Mus musculus with 12 samples.

Results

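Collagen chain genes encode the protein chains that assemble, 3 at a time, into the collagens of the extracellular matrix. All protein-coding genes with a symbol of the form Col, number, a, number were taken from the 12 gene tables of a mouse gastric cancer cell line, which gave 29 members among 18926 genes. Of the 45 mouse chains in the class lists used here, these 29 were in the tables, and the other 16 were not analysed here. The tables hold only genes with at least 1 read in every library, so a chain outside them cannot be read as silent. By class, 9 members were fibrillar, 5 network-forming, 6 fibril-associated (FACIT), 3 microfibrillar, 2 transmembrane and 4 anchoring, multiplexin or other.

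The cells were S1, a gastric cancer line from a mouse tumour with conditional alleles of *Cdh1*, *Trp53* and *Smad4* (F/+ for *Cdh1*, F/F for *Trp53* and also F/F for *Smad4*), and all groups share this background. The Cre driver, the age of the animal and whether any derivative was 1 clone are not given in the sources used here. Cas9-expressing S1 cells received lentiviral guides against *Nf2* (Nf2-KO), against *Rasa1*, or against both (double-KO), or a control vector, and were then grown as floating tumorspheres with epidermal growth factor in low-attachment plates, although the labels name the cell type as monolayer. There were 3 libraries of total RNA per group, which the sources do not describe as separate cultures. The paper calls each point in its plot of these RNA profiles a technical replication. Every SD, standard error (SE) and p-value thus covers the spread between such libraries and not between separate cultures. *Nf2* encodes merlin, an activator of the Hippo pathway, and *Rasa1* encodes a GTPase-activating protein that switches off Ras.

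The targeted genes went against 2 of the labels. *Nf2* stood at 14.9, 21.4 and 22.5 TPM (a level corrected for gene length and scaled to the same total in each library) in control and at 4.26, 5.45 and 3.504 TPM in Nf2-KO. It was at 2.93, 2.98 and 3.39 TPM in the labelled Rasa1-KO group but at 14.4, 15.1 and 17.4 TPM in the labelled double-KO group, whose range overlapped control. *Rasa1* was at 14.2, 23.0 and 29.1 TPM in control, 26.2, 28.2 and 23.4 TPM in Nf2-KO, 7.34, 6.89 and 6.38 TPM in the labelled Rasa1-KO group, and 3.77, 5.04 and 6.73 TPM in the labelled double-KO group. Low *Nf2* together with low *Rasa1* was thus found under the label Rasa1-KO. The names of the deposited tables also exchange these 2 labels, with Do for the group labelled Rasa1-KO and Rasa1_KO for the group labelled double-KO. The groups are therefore written as "labelled Rasa1-KO" and "labelled double-KO" throughout. If these labels were exchanged, the values of the groups would change places. Throughout, values of control and of the group labelled Rasa1-KO run in the order unnumbered library, 1, 2, and those of the other groups in the order 1, 2, 3.

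Collagens share a triple helix built from 3 chains, which may be alike or differ. Fibrillar collagens such as types I, III and V form the cross-banded fibrils of connective tissue, type IV forms the sheet of basement membranes under epithelia, type VI forms beaded microfibrils, and FACITs sit on the surface of fibrils. Transmembrane collagens such as type XVII anchor epithelial cells, and the multiplexins XV and XVIII are basement membrane proteins. In the stomach wall, fibrillar collagens come mainly from fibroblasts, whereas epithelial cells contribute to the basement membrane.

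The summed level of the 29 chains was highest in Nf2-KO. It was 963, 1259 and 1204 TPM in control, 3321, 3471 and 3121 TPM in Nf2-KO, 1187, 1355 and 1234 TPM in the labelled Rasa1-KO group, and 954, 936 and 1059 TPM in the labelled double-KO group. In TPM, Nf2-KO lay above every other library, while the range of the labelled Rasa1-KO group overlapped control. The group means were 1142 ± 157, 3304 ± 175, 1259 ± 86.4 and 983 ± 66.2 TPM, in the same order (SD, n = 3). An exact permutation test of 3 against 3 libraries cannot go below p = 0.1, so no test is given for these sums. Of all reads in a library, the chains took 0.361%, 0.432% and 0.367% in control and 1.34%, 1.37% and 1.38% in Nf2-KO. They took 0.553%, 0.600% and 0.587% in the labelled Rasa1-KO group and 0.384%, 0.357% and 0.357% in the labelled double-KO group. By this share, unlike by TPM, the labelled Rasa1-KO group lay above every control library.

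**Figure D1:**
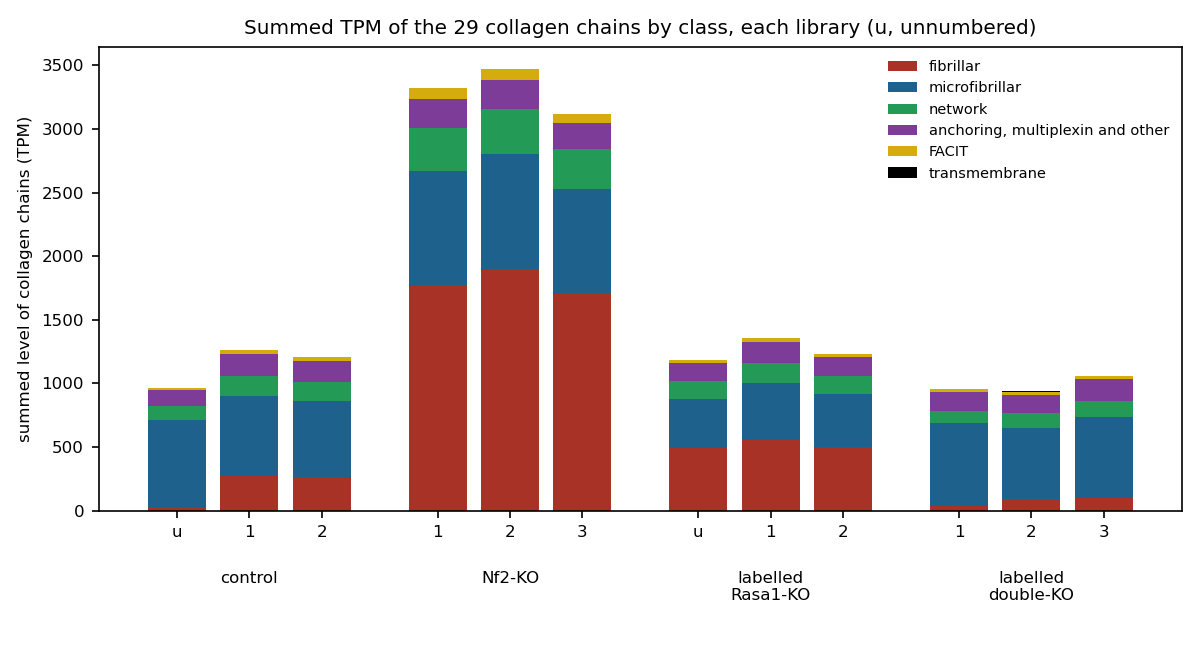
Summed TPM of the 29 collagen chains in each of the 12 libraries (y axis, TPM, starting at 0), stacked by collagen class. The fibrillar part makes up 54.3% of the chain TPM in Nf2-KO and 40.9% in the labelled Rasa1-KO group, against 15.2% in control and 7.67% in the labelled double-KO group.

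The classes were not shared out alike. Fibrillar chains made up 2.13% to 22.0% of the chain TPM in control, 53.4% to 54.8% in Nf2-KO, 40.6% to 41.2% in the labelled Rasa1-KO group and 3.87% to 9.59% in the labelled double-KO group. Microfibrillar chains made up 49.8% to 71.7%, 26.1% to 26.9%, 32.7% to 33.9% and 59.9% to 68.3% in the same order. The share of network chains stayed between 9.93% and 12.7% in all 12 libraries, although their summed level was 333 ± 20.1 TPM in Nf2-KO and 139 ± 25.4 TPM in control (SD, n = 3). The leading chain changed with the classes: *Col6a1* led in all 3 control libraries and all 3 of labelled double-KO, whereas *Col3a1* led in all 3 Nf2-KO libraries and all 3 of labelled Rasa1-KO.

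Most of the spread inside the control group came from 1 library. The unnumbered control library had the lowest TPM of the 3 for 27 of the 29 chains and the highest for the other 2, and for 13 chains the highest control value was over 5 times the lowest. It was also the most deeply sequenced control library, with 95340850 counted reads against 69091487 and 43818139. Among the labelled double-KO group, library 1 had the lowest TPM for 24 chains. The results below are therefore given without the unnumbered control library wherever that changes a call or moves a value by over 1.5 times. For all genes, the ranks and spreads of these libraries in TPM were not counted. The counts above are thus not read as particular to the chains. The control libraries are shared by the 3 comparisons against control, which are not independent.

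Differences were tested with edgeR's quasi-likelihood test on the counts of 18053 genes over all 12 libraries, and a chain is called higher or lower where the Benjamini-Hochberg adjusted p over all tested genes is under 0.05. All 29 chains passed the filter on low counts. In Nf2-KO against control, 13 chains were higher and 3 lower, or 44.8% and 10.3% of the 29, beside 20.4% higher and 22.1% lower over all tested genes. In the labelled Rasa1-KO group against control, 10 were higher and 5 lower, or 34.5% and 17.2%, beside 19.6% and 22.1%. In the labelled double-KO group against control, 0 were higher and 2 lower, beside 3.98% and 2.42%. At an unadjusted p under 0.05 the counts there were 3 higher and 4 lower, and the share of all genes at that level was not counted. By DESeq2 the counts were 1 higher and 3 lower, beside 1271 higher and 836 lower of 17816 genes. With the number in the names of the deposited tables as a replicate block, they were 2 higher and 3 lower. Of 18053 genes, that fit called 1439 higher and 1048 lower. The median log2 fold change of the chains was 0.56, -0.01 and -0.11 in these comparisons, beside -0.07, -0.08 and -0.04 over all tested genes. By the study's own rule of a fold of at least 3 with an unadjusted p under 0.05, 13, 10 and 3 chains passed, or 44.8%, 34.5% and 10.3%, beside 11.4%, 9.26% and 2.02% of all genes. A further 22 fits with other libraries, scaling, units or tools kept the adjusted p as the rule, and a call is said below to hold in all of them only where each one gave it in the same direction.

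**Figure D2:**
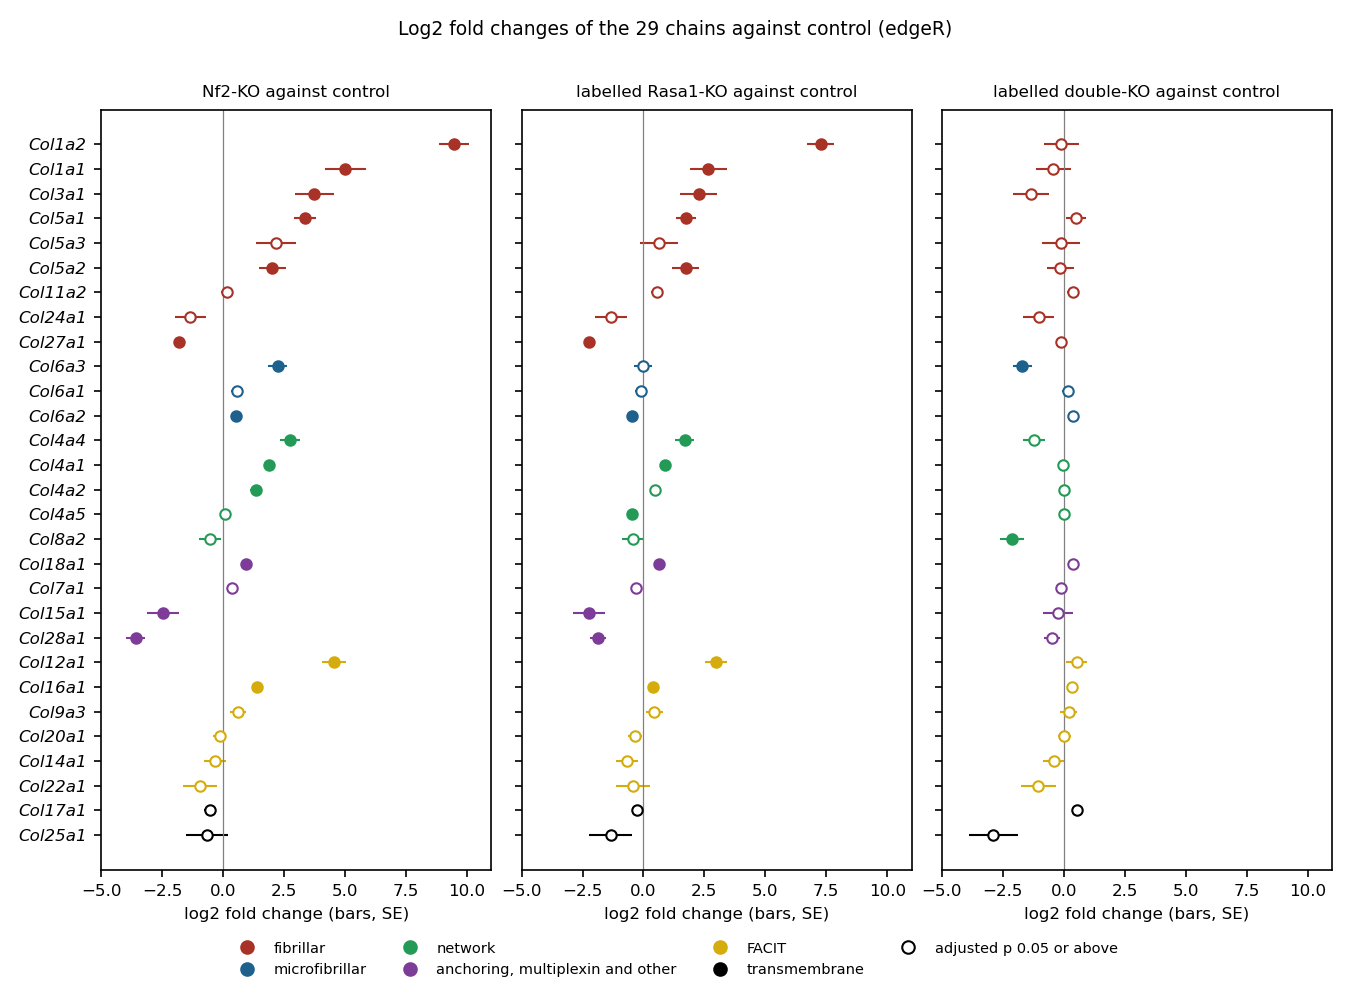
Log2 fold change (x axis, edgeR) of each of the 29 chains in Nf2-KO, labelled Rasa1-KO and labelled double-KO against control, with bars for the SE, colours for the class and filled points where the adjusted p is under 0.05. *Col1a2* is farthest right in the first panels, at 9.47 and 7.27, and 27 of the 29 points are open in the third panel.

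When the unnumbered control library was left out, the calls rose to 16 higher and 7 lower in Nf2-KO, beside 30.6% and 30.9% of all genes. They were 10 higher and 10 lower in the labelled Rasa1-KO group, beside 30.2% and 30.2%, and 3 higher and 9 lower in the labelled double-KO group, beside 17.2% and 12.8%. The share of all genes called thus rose as well. Left without control 1 or control 2, or without library 1 or 2 labelled double-KO, the last comparison had 0 calls, and without library 3 it had 1. The count for the labelled double-KO group thus rests on which libraries of either group are used.

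The counts by class are to be read beside the shares over all tested genes. These were 20.4% higher and 22.1% lower in Nf2-KO, and 19.6% and 22.1% in the labelled Rasa1-KO group. Of the fibrillar chains, 5 of 9 were called higher and 1 lower in Nf2-KO, and likewise 5 and 1 in the labelled Rasa1-KO group. None of the 9 was called in the labelled double-KO group by edgeR, where 0 had an unadjusted p under 0.05 and DESeq2 called 0, and where leaving out the unnumbered control library gave calls for *Col3a1* and *Col24a1*, both lower. In bulk RNA, fewer cells of a type and less RNA per cell cannot be told apart, and this holds for every level below.

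*Col1a2* (chr6:4505618-4541543, build GRCm38.p6) encodes the alpha-2 chain of type I collagen and had the largest change of all 29. Its level was 0.00398, 0.0462 and 0.176 TPM in control, 34.3, 36.4 and 32.6 TPM in Nf2-KO, 6.05, 6.68 and 5.83 TPM in the labelled Rasa1-KO group, and 0.0127, 0.0681 and 0.0482 TPM in the labelled double-KO group. The Nf2-KO and labelled Rasa1-KO libraries lay apart from each other and from all others, while control and labelled double-KO overlapped. The control values stand for only 2, 12 and 25 reads and the labelled double-KO group for 6, 22 and 15, against 11268 to 12153 reads in Nf2-KO, so the size of the fitted fold depends on few reads. On the log2 scale, the change was 9.47 ± 0.60 in Nf2-KO (SE, adjusted p = 4.5e-07, edgeR) and 7.27 ± 0.57 in the labelled Rasa1-KO group (adjusted p = 3.2e-06). When the unnumbered control library was left out these were 8.81 and 6.61, which are smaller folds by more than 1.5 times, and the calls stayed. In the labelled double-KO group it was -0.11 with all libraries and -0.78 without that one (adjusted p = 0.24).

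*Col1a1* (chr11:94936224-94953042), the other chain of type I collagen, changed by a smaller fold. It stood at 0.224, 3.14 and 6.399 TPM in control, 94.1, 80.5 and 63.4 TPM in Nf2-KO, 11.8, 17.1 and 9.72 TPM in the labelled Rasa1-KO group, and 0.493, 2.29 and 2.59 TPM in the labelled double-KO group. Control did not overlap with Nf2-KO or labelled Rasa1-KO, and it did overlap with labelled double-KO. Its log2 fold change was 5.00 ± 0.84 in Nf2-KO (adjusted p = 0.00064, edgeR), 2.66 ± 0.76 in the labelled Rasa1-KO group (adjusted p = 0.016) and -0.43 ± 0.73 in the labelled double-KO group (adjusted p = 0.79). The call in the labelled Rasa1-KO group was lost without control 1 (adjusted p = 0.052).

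Type I collagen is usually made of 2 chains from *Col1a1* and 1 from *Col1a2*. The ratio of *Col1a1* to *Col1a2* in TPM was 2.74, 2.21 and 1.95 in Nf2-KO and 1.96, 2.56 and 1.67 in the labelled Rasa1-KO group. It was 56.3, 68.1 and 36.4 in control and 38.7, 33.7 and 53.8 in the labelled double-KO group. The ratio thus separated Nf2-KO and labelled Rasa1-KO from control and labelled double-KO without overlap. The unnumbered control library lay between the other controls by this measure.

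*Col3a1* (chr1:45311538-45349706) encodes the only chain of type III collagen, a fibrillar collagen of extensible tissues. Its level was 8.21, 224 and 209 TPM in control, 1515, 1650 and 1501 TPM in Nf2-KO, 438, 488 and 451 TPM in the labelled Rasa1-KO group, and 18.3, 53.2 and 61.0 TPM in the labelled double-KO group. Nf2-KO and labelled Rasa1-KO lay above all control libraries, and the labelled double-KO group lay between the unnumbered control library and the other 2. The change in log2 was 3.75 ± 0.80 in Nf2-KO (adjusted p = 0.0029, edgeR) and 2.26 ± 0.75 in the labelled Rasa1-KO group (adjusted p = 0.030), which lost its call without control 2 or any 1 of its own 3 libraries (adjusted p 0.056 to 0.065). In the labelled double-KO group it was -1.34 ± 0.73 (adjusted p = 0.32), and without the unnumbered control library -1.89 (adjusted p = 0.00079).

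The 250 bases before the start sites of *Col1a2* and *Col3a1* are shown because these are the fibrillar chains with the largest fold and the highest level in Nf2-KO. Both are from RefSeq on build GRCm38.p6, on the plus strand at chr6:4505368-4505617 and chr1:45311288-45311537. Capitals mark the letters of 3 motifs searched on both strands: CCAAT for the CCAAT box, then TATAAA for the TATA box, and for the TEAD motif GGAATG, which reads CATTCC from the other strand.
Col1a2: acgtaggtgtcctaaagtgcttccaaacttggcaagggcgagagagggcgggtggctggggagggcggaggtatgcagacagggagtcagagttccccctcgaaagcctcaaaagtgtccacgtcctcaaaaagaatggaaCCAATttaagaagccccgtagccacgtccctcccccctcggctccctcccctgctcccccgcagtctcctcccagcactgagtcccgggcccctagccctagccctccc
Col3a1: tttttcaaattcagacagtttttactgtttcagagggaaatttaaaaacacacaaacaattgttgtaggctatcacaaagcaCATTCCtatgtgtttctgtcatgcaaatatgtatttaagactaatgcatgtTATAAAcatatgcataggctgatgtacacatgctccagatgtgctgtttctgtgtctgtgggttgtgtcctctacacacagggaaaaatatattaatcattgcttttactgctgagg

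*Col1a2* held CCAAT at -109 to -105 from the start, and *Col3a1* held GGAATG on the minus strand at -168 to -163 and TATAAA at -117 to -112. TEAD factors are the DNA-binding partners of YAP and TAZ, which the Hippo pathway restrains. Of the 23 members with a promoter in the RefSeq table, 4 held GGAATG (*Col3a1*, *Col6a2*, *Col18a1* and *Col20a1*), 10 held CCAAT and 3 held TATAAA. Over all 32851 promoters of the table the shares were 12.6%, 33.8% and 12.4%. The match is a description of letters only.

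Type V collagen nucleates and limits the width of type I fibrils. *Col5a1* stood at 2.45, 14.0 and 15.9 TPM in control, 88.2, 91.1 and 79.9 TPM in Nf2-KO, 21.4, 26.3 and 23.0 TPM in the labelled Rasa1-KO group, and 6.75, 13.3 and 15.2 TPM in the labelled double-KO group. Both groups with low *Nf2* lay above all control libraries, and labelled double-KO overlapped with control. Against control, the log2 fold change was 3.35 ± 0.45 in Nf2-KO (adjusted p = 0.00011, edgeR) and 1.75 ± 0.42 in the labelled Rasa1-KO group (adjusted p = 0.0064), and both calls held in all 22 alternative fits.

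*Col5a2* (chr1:45374331-45503282), which lies close to *Col3a1*, was measured at 0.336 TPM or less in every library, or 7 to 159 reads. It was at 0.0118, 0.126 and 0.177 TPM in control, 0.314, 0.327 and 0.336 TPM in Nf2-KO, 0.208, 0.219 and 0.233 TPM in the labelled Rasa1-KO group, and 0.0384, 0.0853 and 0.0856 TPM in the labelled double-KO group. Both groups with low *Nf2* lay above all control libraries. On the log2 scale, the change was 2.01 ± 0.55 in Nf2-KO (adjusted p = 0.012, edgeR) and 1.73 ± 0.55 in the labelled Rasa1-KO group (adjusted p = 0.025), and without the unnumbered control library it was 1.49 and 1.20. The second call was lost without any 1 of the labelled Rasa1-KO libraries (adjusted p 0.051 to 0.068), and both were lost with only the groups compared (adjusted p = 0.075 and 0.10).

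*Col5a3*, a further type V chain, had a wide control range, at 0.412, 13.6 and 16.1 TPM. It was at 38.7, 36.3 and 30.3 TPM in Nf2-KO, 9.25, 11.4 and 9.73 TPM in the labelled Rasa1-KO group, and 2.05, 8.77 and 10.3 TPM in the labelled double-KO group. Only Nf2-KO lay apart from control, and its log2 fold change of 2.17 ± 0.81 did not pass (adjusted p = 0.050, edgeR). It passed without the unnumbered control library, at 1.61 (adjusted p = 0.0037), and without library 1 labelled double-KO, at 2.17.

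The fibrillar chain called lower was *Col27a1*, which encodes the chain of type XXVII, a collagen known from cartilage. It was at 8.92, 16.0 and 17.1 TPM in control, 3.68, 3.57 and 2.95 TPM in Nf2-KO, 1.97, 2.34 and 1.85 TPM in the labelled Rasa1-KO group, and 8.99, 11.3 and 11.9 TPM in the labelled double-KO group. Both groups with low *Nf2* lay below all control libraries. Its log2 fold change was -1.82 ± 0.11 in Nf2-KO (adjusted p = 3.9e-07, edgeR) and -2.25 ± 0.12 in the labelled Rasa1-KO group (adjusted p = 1.5e-07), and both calls held in all 22 alternative fits. In the labelled double-KO group it was -0.11 ± 0.11 (adjusted p = 0.63).

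*Col11a2* and *Col24a1*, the remaining fibrillar chains, stayed at 0.224 to 0.344 and 0.0149 to 0.211 TPM over the 12 libraries and passed in no comparison. *Col24a1* passed as lower in all 3 comparisons with control once the unnumbered control library was left out, at -1.82 in Nf2-KO, -1.82 in the labelled Rasa1-KO group and -1.51 in the labelled double-KO group.

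**Figure D3:**
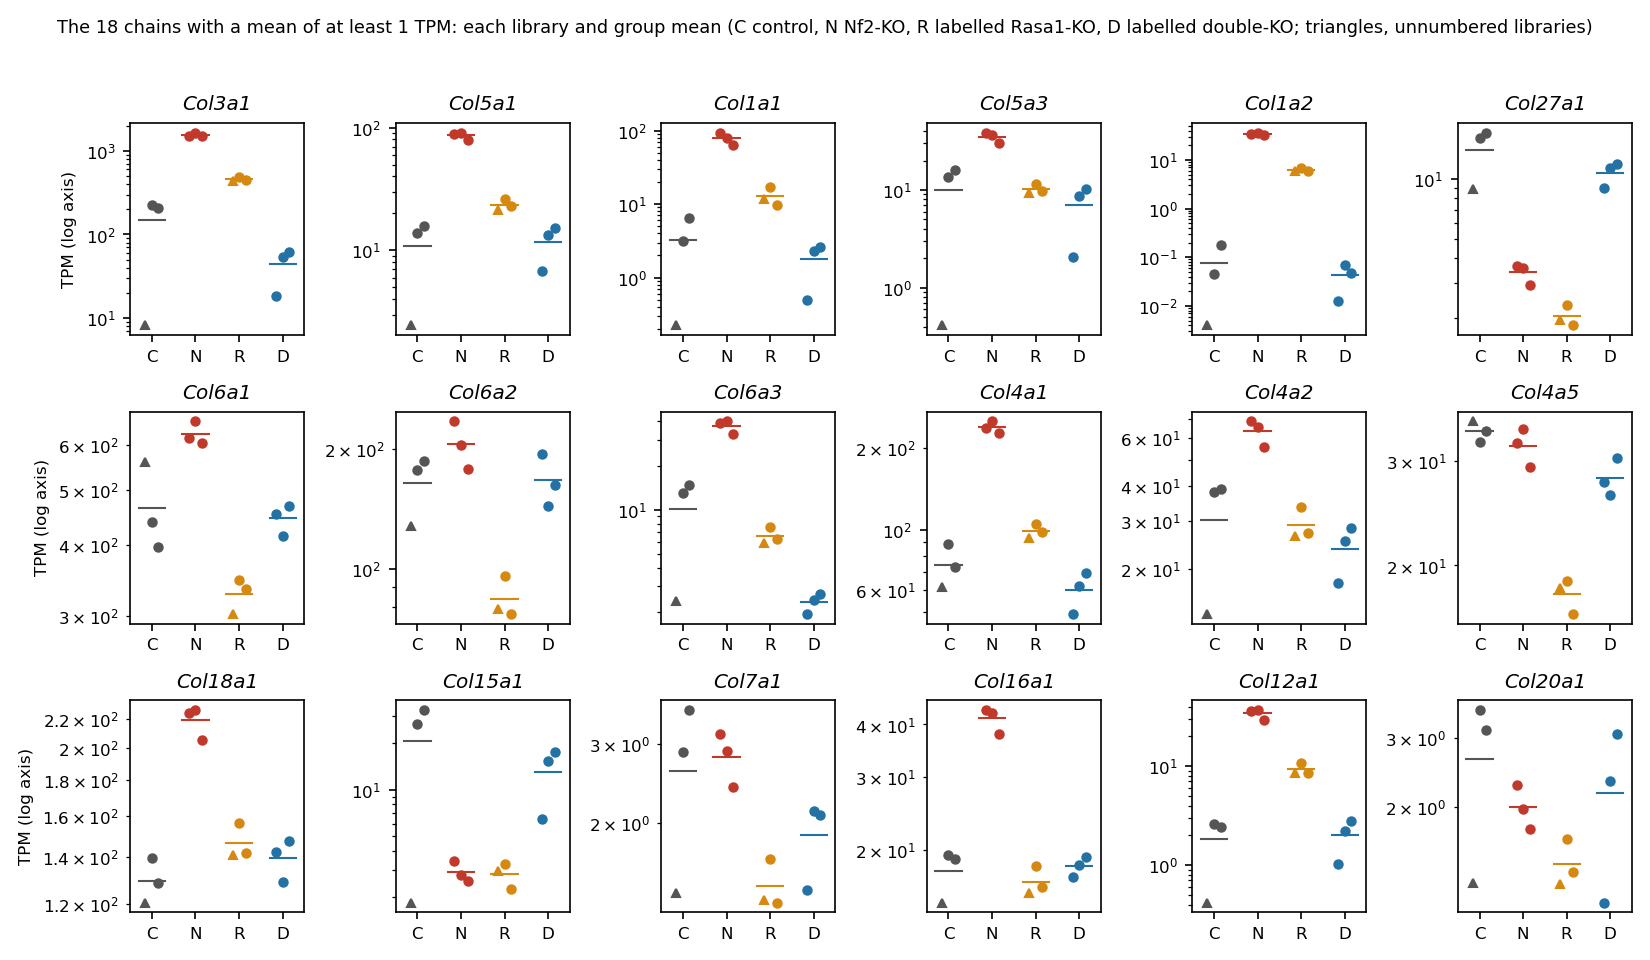
TPM (y axis, log scale) of the 18 chains with a mean of at least 1 TPM in each library, with points for libraries, triangles for the unnumbered libraries of control and labelled Rasa1-KO, and lines for the group means (n = 3). *Col3a1* spans 8.21 to 1650 TPM, and the unnumbered control library is the lowest control point of most panels.

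Among the network chains, *Col4a1* and *Col4a2* encode the usual chains of basement membrane type IV collagen, and their start sites lie 21 bases apart, head to head, on chromosome 8. *Col4a1* was at 61.6, 89.0 and 73.2 TPM in control, 237, 250 and 226 TPM in Nf2-KO, 93.2, 105 and 98.04 TPM in the labelled Rasa1-KO group, and 49.1, 62.0 and 69.7 TPM in the labelled double-KO group. Nf2-KO and labelled Rasa1-KO lay above control. The change in log2 was 1.86 ± 0.14 in Nf2-KO (adjusted p = 1.3e-06, edgeR) and 0.87 ± 0.13 in the labelled Rasa1-KO group (adjusted p = 0.00039), and both calls held in all 22 alternative fits, although the second change is under 3-fold and does not pass the study's rule.

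*Col4a2* was at 13.7, 38.0 and 39.0 TPM in control, 69.0, 65.7 and 55.5 TPM in Nf2-KO, 26.5, 33.6 and 27.0 TPM in the labelled Rasa1-KO group, and 17.9, 25.2 and 28.2 TPM in the labelled double-KO group. Only Nf2-KO lay apart from control. Against control, the log2 fold change was 1.33 ± 0.22 in Nf2-KO (adjusted p = 0.00053, edgeR) and 0.49 ± 0.22 in the labelled Rasa1-KO group (adjusted p = 0.091), which passed without control 1, at 0.72. The ratio of *Col4a1* to *Col4a2* in TPM was 3.43 to 4.08 in Nf2-KO, 3.12 to 3.63 in the labelled Rasa1-KO group and 2.46 to 2.75 in the labelled double-KO group. In control it was 4.49 in the unnumbered library and 2.34 and 1.88 in the others. The annotated spans of the pair overlap at their starts, and whether the counting used strand is not given in the sources used here.

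*Col4a4*, a chain of the kidney-type basement membrane, was rare, with 8 to 187 reads in a library. It was at 0.0283, 0.0553 and 0.0831 TPM in control, 0.365, 0.369 and 0.244 TPM in Nf2-KO, 0.0977, 0.176 and 0.138 TPM in the labelled Rasa1-KO group, and 0.0122, 0.0172 and 0.0136 TPM in the labelled double-KO group. None of the other groups overlapped with control. On the log2 scale, the change was 2.75 ± 0.41 in Nf2-KO (adjusted p = 0.00024, edgeR), 1.69 ± 0.40 in the labelled Rasa1-KO group (adjusted p = 0.0062) and -1.22 ± 0.44 in the labelled double-KO group (adjusted p = 0.14). The call in the labelled Rasa1-KO group was lost by limma on TPM, at 0.61 on the log2(TPM + 0.1) scale (adjusted p = 0.053). Without the unnumbered control library the change in the labelled double-KO group was -1.56 and passed (adjusted p = 0.016).

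*Col4a5*, an X-linked partner of the same kind of network, was at 35.1, 32.4 and 33.8 TPM in control, 32.2, 34.0 and 29.4 TPM in Nf2-KO, 18.3, 18.8 and 16.6 TPM in the labelled Rasa1-KO group, and 27.7, 26.3 and 30.4 TPM in the labelled double-KO group. The labelled Rasa1-KO libraries were the lowest 3 of the 12. In TPM their mean was 17.9 ± 1.19 against 33.8 ± 1.33 (SD, n = 3), but the log2 fold change on counts was only -0.48 ± 0.16 (adjusted p = 0.031, edgeR). On the log2(TPM + 0.1) scale, the median of all genes was shifted by -0.43 in this comparison, by -0.20 in Nf2-KO and by -0.28 in the labelled double-KO group, so TPM differences are to be read against these shifts. The call was lost without the unnumbered control library, where the change was -0.25 (adjusted p = 0.052), and without any 1 of 4 other libraries, the 3 labelled Rasa1-KO and library 3 labelled double-KO. In Nf2-KO it was 0.07 (adjusted p = 0.73), and without the unnumbered control library it passed at 0.30 (adjusted p = 0.021).

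*Col8a2*, a short-chain network collagen best known from the cornea, was called only in the labelled double-KO group among the comparisons with control. It was at 0.0768, 0.162 and 0.239 TPM in control, 0.0683, 0.114 and 0.0830 TPM in Nf2-KO, 0.0353, 0.101 and 0.104 TPM in the labelled Rasa1-KO group, and 0.0130, 0.0241 and 0.0434 TPM in the labelled double-KO group, or 6, 8 and 13 reads. The labelled double-KO libraries did not overlap with control. Its log2 fold change was -2.14 ± 0.49 (adjusted p = 0.025, edgeR), and the call was lost without control 1, control 2, or library 1 or 2 labelled double-KO (adjusted p 0.055 to 0.11).

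Type VI collagen is a beaded filament of 3 different chains, and its members did not move alike. *Col6a1* was the best-read of them, at 560, 440 and 397 TPM in control, 619, 661 and 606 TPM in Nf2-KO, 303, 347 and 335 TPM in the labelled Rasa1-KO group, and 455, 416 and 469 TPM in the labelled double-KO group. In TPM, Nf2-KO lay above and labelled Rasa1-KO below all control libraries. It was called in no comparison, with log2 fold changes of 0.56 ± 0.24 in Nf2-KO (adjusted p = 0.077, edgeR), -0.10 ± 0.24 in the labelled Rasa1-KO group (adjusted p = 0.76) and 0.18 ± 0.24 in the labelled double-KO group (adjusted p = 0.72). Here the unnumbered control library was the highest control, and without it the changes were 0.94 in Nf2-KO (adjusted p = 0.00013), 0.28 in the labelled Rasa1-KO group (adjusted p = 0.10) and 0.56 in the labelled double-KO group (adjusted p = 0.013).

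*Col6a2*, which lies near *Col6a1* on chromosome 10, was at 128, 177 and 187 TPM in control, 235, 205 and 178 TPM in Nf2-KO, 79.5, 95.95 and 77.0 TPM in the labelled Rasa1-KO group, and 195, 144 and 163 TPM in the labelled double-KO group. The labelled Rasa1-KO libraries were the lowest 3 of the 12, and the other groups overlapped. It was the only chain called in opposite directions, higher in Nf2-KO at 0.53 ± 0.17 (adjusted p = 0.026, edgeR) and lower in the labelled Rasa1-KO group at -0.48 ± 0.17 (adjusted p = 0.039). The first call was lost without control 2 or Nf2-KO 1 (adjusted p 0.073 to 0.095), and the second without control 1, Nf2-KO 2, Nf2-KO 3 or any 1 of the labelled Rasa1-KO libraries (adjusted p 0.055 to 0.12).

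*Col6a3*, the long chain of type VI, was at 2.40, 13.1 and 14.8 TPM in control, 39.2, 40.1 and 33.0 TPM in Nf2-KO, 5.95, 7.65 and 6.27 TPM in the labelled Rasa1-KO group, and 1.94, 2.42 and 2.67 TPM in the labelled double-KO group. Nf2-KO lay above control, and the other groups overlapped with it. The change in log2 was 2.23 ± 0.38 in Nf2-KO (adjusted p = 0.00071, edgeR), -0.01 ± 0.37 in the labelled Rasa1-KO group (adjusted p = 0.99) and -1.70 ± 0.38 in the labelled double-KO group (adjusted p = 0.022). The last call was lost without control 1, control 2 or any 1 of the labelled double-KO libraries (adjusted p 0.055 to 0.091). When the unnumbered control library was left out, the changes were 1.82, -0.42 (adjusted p = 0.0013) and -2.11.

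The ratio of *Col6a1* to *Col6a3* in TPM was 15.8 to 18.4 in Nf2-KO, 45.4 to 53.4 in the labelled Rasa1-KO group and 172 to 234 in the labelled double-KO group. In control it was 233 in the unnumbered library and 33.7 and 26.8 in the others. The 3 edited groups did not overlap in this ratio.

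**Figure D4:**
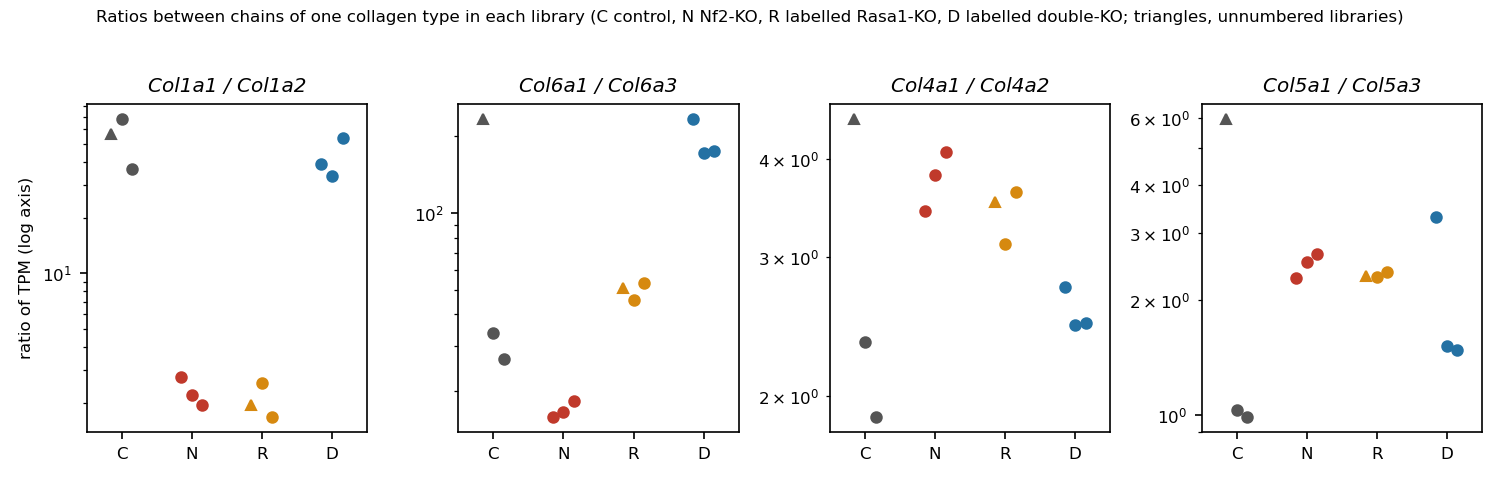
Ratio of TPM (y axis, log scale) between chains of one collagen type in each library, for types I, VI, IV and V. *Col1a1* to *Col1a2* is 1.67 to 2.74 in Nf2-KO and labelled Rasa1-KO and 33.7 to 68.1 in control and labelled double-KO, and the unnumbered control library lies above the other controls for the other 3 ratios.

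Among the FACIT chains, 2 of 6 were called higher in Nf2-KO and the same 2 in the labelled Rasa1-KO group. This is 33.3% in each, beside 20.4% and 19.6% higher over all tested genes. *Col12a1*, which encodes the chain of type XII on the surface of type I fibrils, was at 0.417, 2.60 and 2.46 TPM in control, 36.4, 37.0 and 29.6 TPM in Nf2-KO, 8.58, 10.9 and 8.55 TPM in the labelled Rasa1-KO group, and 1.03, 2.20 and 2.82 TPM in the labelled double-KO group. Nf2-KO and labelled Rasa1-KO lay above all other libraries and apart from each other. Against control, the log2 fold change was 4.56 ± 0.49 in Nf2-KO (adjusted p = 2.2e-05, edgeR) and 2.97 ± 0.46 in the labelled Rasa1-KO group (adjusted p = 0.00039), and both calls held in all 22 alternative fits.

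*Col16a1*, the chain of type XVI, was at 14.96, 19.5 and 19.0 TPM in control, 43.3, 42.7 and 38.0 TPM in Nf2-KO, 15.8, 18.3 and 16.3 TPM in the labelled Rasa1-KO group, and 17.3, 18.4 and 19.3 TPM in the labelled double-KO group. Only Nf2-KO lay apart, at a log2 fold change of 1.41 ± 0.11 (adjusted p = 2.0e-06, edgeR). In the labelled Rasa1-KO group it was 0.39 ± 0.11 on counts (adjusted p = 0.014) and turned to -0.077 on the log2(TPM + 0.1) scale and -0.073 on the log2(TPM + 1) scale, so no direction is given. That call was also lost without library 1 labelled Rasa1-KO (adjusted p = 0.052). For labelled double-KO it was 0.34 (adjusted p = 0.089, edgeR), and 0.40 without the unnumbered control library (adjusted p = 0.017).

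The other FACIT chains passed in no comparison. *Col20a1* was at 1.28, 3.54 and 3.14 TPM in control, 2.27, 1.98 and 1.76 TPM in Nf2-KO, 1.27, 1.65 and 1.36 TPM in the labelled Rasa1-KO group, and 1.14, 2.32 and 3.07 TPM in the labelled double-KO group, and all groups overlapped with control. *Col14a1*, *Col9a3* and *Col22a1* ranged over 0.224 to 1.58, 0.171 to 0.739 and 0.0106 to 0.202 TPM. Without the unnumbered control library, *Col14a1* was lower in all 3 comparisons with control, at -0.75, -1.10 and -0.83. *Col22a1* was then lower in Nf2-KO, at -1.47, and in the labelled double-KO group, at -1.55, and *Col20a1* in the labelled Rasa1-KO group, at -0.59.

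The multiplexins went opposite ways. *Col18a1*, the source of endostatin, was at 120, 139 and 129 TPM in control, 225, 227 and 206 TPM in Nf2-KO, 141, 156 and 142 TPM in the labelled Rasa1-KO group, and 142, 129 and 147 TPM in the labelled double-KO group. The Nf2-KO libraries were the highest 3 of the 12, and the labelled Rasa1-KO group lay just above control. On the log2 scale, the change was 0.94 ± 0.15 in Nf2-KO (adjusted p = 0.00042, edgeR) and 0.63 ± 0.15 in the labelled Rasa1-KO group (adjusted p = 0.0059). The second call was lost by limma on TPM, at 0.18 on the log2(TPM + 0.1) scale (adjusted p = 0.15). In the labelled double-KO group it was 0.39 (adjusted p = 0.15), and without the unnumbered control library it passed at 0.53 (adjusted p = 0.013).

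*Col15a1* was at 1.83, 26.9 and 33.0 TPM in control, 3.43, 2.78 and 2.52 TPM in Nf2-KO, 2.95, 3.26 and 2.26 TPM in the labelled Rasa1-KO group, and 6.47, 15.3 and 17.4 TPM in the labelled double-KO group. Each group with low *Nf2* lay below control 1 and 2 but above the unnumbered control library. Its log2 fold change was -2.47 ± 0.65 in Nf2-KO (adjusted p = 0.010, edgeR) and -2.23 ± 0.65 in the labelled Rasa1-KO group (adjusted p = 0.017), and without the unnumbered control library -2.99 and -2.75. With only the groups compared, both calls were lost (adjusted p = 0.057 and 0.079), as they were by limma on TPM. The second was also lost without control 1, or without the unnumbered library or library 2 labelled Rasa1-KO (adjusted p 0.052 to 0.064). In the labelled double-KO group it was -0.25 ± 0.62 (adjusted p = 0.86), and -0.77 without the unnumbered control library (adjusted p = 0.031).

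*Col28a1*, a collagen with von Willebrand factor A domains, was the most reduced chain in Nf2-KO. It was at 0.248, 0.512 and 0.667 TPM in control, 0.0174, 0.0344 and 0.0382 TPM in Nf2-KO, 0.0868, 0.0758 and 0.1004 TPM in the labelled Rasa1-KO group, and 0.252, 0.198 and 0.343 TPM in the labelled double-KO group. Nf2-KO was lowest, with 6, 12 and 15 reads, and it did not overlap with the labelled Rasa1-KO group, which in turn lay below control. The change in log2 was -3.59 ± 0.38 in Nf2-KO (adjusted p = 1.7e-05, edgeR) and -1.86 ± 0.34 in the labelled Rasa1-KO group (adjusted p = 0.0012), and both calls held in all 22 alternative fits.

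*Col7a1*, the anchoring fibril chain of squamous epithelia, was called in no comparison. It was at 1.39, 2.88 and 3.58 TPM in control, 3.15, 2.89 and 2.40 TPM in Nf2-KO, 1.34, 1.66 and 1.32 TPM in the labelled Rasa1-KO group, and 1.41, 2.13 and 2.08 TPM in the labelled double-KO group. When the unnumbered control library was left out, it was lower in the labelled Rasa1-KO group, at -0.51 (adjusted p = 0.0045, edgeR).

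Both transmembrane chains were rare. *Col17a1*, the hemidesmosome collagen, ranged over 0.280 to 0.828 TPM and passed in no comparison with control, although it was lower in Nf2-KO at -0.68 without the unnumbered control library (adjusted p = 0.023, edgeR) and at -0.55 without library 1 labelled double-KO. *Col25a1*, the collagen of amyloid plaques, ranged over 0.000374 to 0.178 TPM, with 1, 1 and 10 reads in the labelled double-KO group and 5, 28 and 37 in control. Without the unnumbered control library, it passed as lower in the labelled Rasa1-KO group and labelled double-KO (adjusted p = 0.033 and 0.0076).

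The labelled double-KO libraries were next compared with the labelled Rasa1-KO group. They differ in *Nf2* level, while *Rasa1* is low in both, at 3.77 to 6.73 TPM in labelled double-KO and 6.38 to 7.34 TPM in labelled Rasa1-KO. At an unadjusted p under 0.05 (edgeR), 1 of these targeted genes was higher and 1 lower in labelled double-KO, so *Nf2* is not the only difference. Of the 29 chains, 6 were higher and 10 lower, or 20.7% and 34.5%, beside 16.1% higher and 13.9% lower over all tested genes. By the study's rule 10 passed, or 34.5%, beside 5.64%. The 5 fibrillar chains lower in the labelled double-KO group were *Col1a2* at -7.38 ± 0.56, *Col3a1* at -3.61 ± 0.79, *Col1a1* at -3.09 ± 0.78, *Col5a2* at -1.87 ± 0.54 and *Col5a1* at -1.23 ± 0.41 (log2, SE). *Col12a1* was lower at -2.45 ± 0.45, *Col4a4* at -2.91 ± 0.43, *Col4a1* at -0.90 ± 0.13, *Col8a2* at -1.73 ± 0.49 and *Col6a3* at -1.69 ± 0.38.

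The 6 chains higher in the labelled double-KO group were *Col27a1* at 2.14 ± 0.12, *Col15a1* at 1.99 ± 0.64, *Col28a1* at 1.39 ± 0.34, *Col6a2* at 0.84 ± 0.17, *Col17a1* at 0.81 ± 0.23 and *Col4a5* at 0.48 ± 0.16 (log2, SE). Of these 16 calls, 8 held in all 22 alternative fits: *Col1a2*, *Col1a1*, *Col3a1*, *Col12a1*, *Col4a1*, *Col4a4*, *Col27a1* and *Col6a2*. Of these, *Col4a1* and *Col6a2* are under 3-fold. Leaving out single libraries ended the calls of *Col5a1*, *Col4a5* and *Col15a1* most often, in 9, 9 and 8 of 12 cases, with adjusted p 0.050 to 0.13 (edgeR). *Col5a2*, *Col17a1* and *Col8a2* lost theirs in 5, 5 and 4 cases. *Col4a2*, at -0.48, passed as lower without the unnumbered control library (adjusted p = 0.0023).

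The labelled Rasa1-KO and Nf2-KO libraries are both low in *Nf2*, while *Rasa1* was at 6.38 to 7.34 TPM in the first and 23.4 to 28.2 TPM in the second. At an unadjusted p under 0.05 (edgeR), 2 targeted genes were lower in labelled Rasa1-KO, so *Nf2* also differs. In labelled Rasa1-KO against Nf2-KO, 1 chain was higher and 5 were lower, or 3.45% and 17.2%, beside 1.9% higher and 1.72% lower over all tested genes. By the study's rule 6 passed, or 20.7%, beside 1.28%. The median log2 fold change of the chains was -0.66, beside 0.01 over all genes. The lower chains were *Col6a3* at -2.24 ± 0.38, *Col1a2* at -2.20 ± 0.40, *Col16a1* at -1.02 ± 0.11, *Col6a2* at -1.01 ± 0.17 and *Col4a1* at -0.99 ± 0.13, and the higher chain was *Col28a1* at 1.73 ± 0.37 (log2, SE). Only *Col16a1* and *Col4a1* kept their calls in all 22 alternative fits, and both are under 3-fold.

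This comparison rests strongly on how the spread is estimated, since the unnumbered control library enters that estimate although control is not compared. With only the 6 libraries compared, 1 chain was higher and 17 were lower, beside 12.4% and 14.2% of all genes. Left without the unnumbered control library, 1 was higher and 16 were lower, beside 5.48% and 6.75%, at nearly the same log2 fold changes. Chains gained in this way included *Col3a1* at -1.48 (adjusted p = 0.0032, edgeR), *Col1a1* at -2.35 (adjusted p = 0.0031), *Col5a1* at -1.60 (adjusted p = 8.0e-05), *Col12a1* at -1.59 (adjusted p = 0.00038), *Col5a3* at -1.51 (adjusted p = 0.012), *Col6a1* at -0.66 (adjusted p = 0.0053) and *Col4a5* at -0.55 (adjusted p = 0.0021). The same setting also brought in *Col4a2*, *Col4a4*, *Col7a1* and *Col27a1*, all lower. Leaving out 1 of the 3 libraries labelled Rasa1-KO instead left 2 to 4 calls.

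Over the 5 comparisons, 19 of the 29 chains were called at least once. The other 10 were *Col5a3*, *Col6a1*, *Col7a1*, *Col9a3*, *Col11a2*, *Col14a1*, *Col20a1*, *Col22a1*, *Col24a1* and *Col25a1*. The share of all tested genes called at least once over the 5 comparisons was not counted.

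Collagen chains need enzymes and chaperones in the endoplasmic reticulum, and proteases and crosslinking oxidases outside the cell, and these were counted as lists. Their counts with all libraries are to be read beside the shares over all tested genes. These were 20.4% higher and 22.1% lower in Nf2-KO, 19.6% and 22.1% in the labelled Rasa1-KO group, and 3.98% and 2.42% in the labelled double-KO group. Of 22 tested genes for folding and modification in the cell, 10 were higher and 5 lower in Nf2-KO, 5 and 5 in the labelled Rasa1-KO group, and 3 and 0 in the labelled double-KO group. The median log2 fold change of this list was 0.27, 0.22 and 0.16, beside -0.07, -0.08 and -0.04 over all genes. *P4ha2*, a catalytic chain of prolyl 4-hydroxylase, was higher in Nf2-KO by 2.29 ± 0.14, and *Plod2*, a lysyl hydroxylase of the collagen ends, by 2.51 ± 0.14 (log2, SE). Both were also higher in the labelled Rasa1-KO group, *P4ha2* by 1.71 ± 0.14 and *Plod2* by 1.89 ± 0.13. *Creb3l1*, which encodes a transcription factor for collagen genes, was lower, at -2.36 ± 0.57 in Nf2-KO and -2.95 ± 0.59 in the labelled Rasa1-KO group.

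Of 13 tested genes for processing and crosslinking outside the cell, 8 were higher and 4 lower in Nf2-KO, 7 and 5 in the labelled Rasa1-KO group, and 3 and 1 in the labelled double-KO group, with medians of 1.18, 0.53 and -0.02 beside the same -0.07, -0.08 and -0.04. *Adamts2*, a protease that trims the amino end of fibrillar procollagens, was higher by 4.34 ± 0.70 in Nf2-KO and 2.27 ± 0.65 in the labelled Rasa1-KO group, whereas its relative *Adamts3* was lower, at -2.39 ± 0.34 and -2.29 ± 0.33. *Lox*, the crosslinking oxidase, was higher by 3.13 ± 0.62 and 2.62 ± 0.61, and *Pcolce2*, an enhancer of procollagen cleavage, by 3.05 ± 0.25 and 3.28 ± 0.26. *Tll1*, which encodes a procollagen protease, was lower, at -3.30 ± 0.35 and -3.16 ± 0.35. *Pcolce2* was also higher in the labelled double-KO group by 1.14 ± 0.24 (log2, SE), as were *P4ha2* by 1.25 ± 0.14 and *Plod2* by 1.17 ± 0.13, while *Adamts14* was lower, at -1.05 ± 0.28. Left without any 1 of the 3 Nf2-KO libraries, this list had 0 genes lower in the labelled double-KO group.

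Of 7 tested collagen receptors, 3 were higher and 3 lower in Nf2-KO, 1 and 3 in the labelled Rasa1-KO group, and 0 and 0 in the labelled double-KO group, with medians of -0.06, -0.22 and -0.09, again beside -0.07, -0.08 and -0.04. *Ddr2*, a receptor kinase for fibrillar collagen, was higher in Nf2-KO by 3.44 ± 0.34 and in the labelled Rasa1-KO group by 2.05 ± 0.33. In the labelled double-KO group, 2 of the 7 passed at an unadjusted p under 0.05, both lower. The share of all genes at that level was not counted. When the unnumbered control library was left out, the counts in the labelled double-KO group rose to 8 higher and 2 lower for folding, 3 and 5 for processing, and 0 and 3 for receptors. In the labelled Rasa1-KO group, those for folding rose to 9 higher and 6 lower and those for receptors to 2 and 4, with a receptor median of -0.64. In Nf2-KO they were 13 and 5 for folding and 3 and 4 for receptors, with a receptor median of -0.49. Those for processing stayed at 8 and 4 in Nf2-KO and 7 and 5 in the labelled Rasa1-KO group. Without that library, the shares over all tested genes were 17.2% higher and 12.8% lower in the labelled double-KO group. They were 30.2% and 30.2% in the labelled Rasa1-KO group and 30.6% and 30.9% in Nf2-KO.

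**Figure D5:**
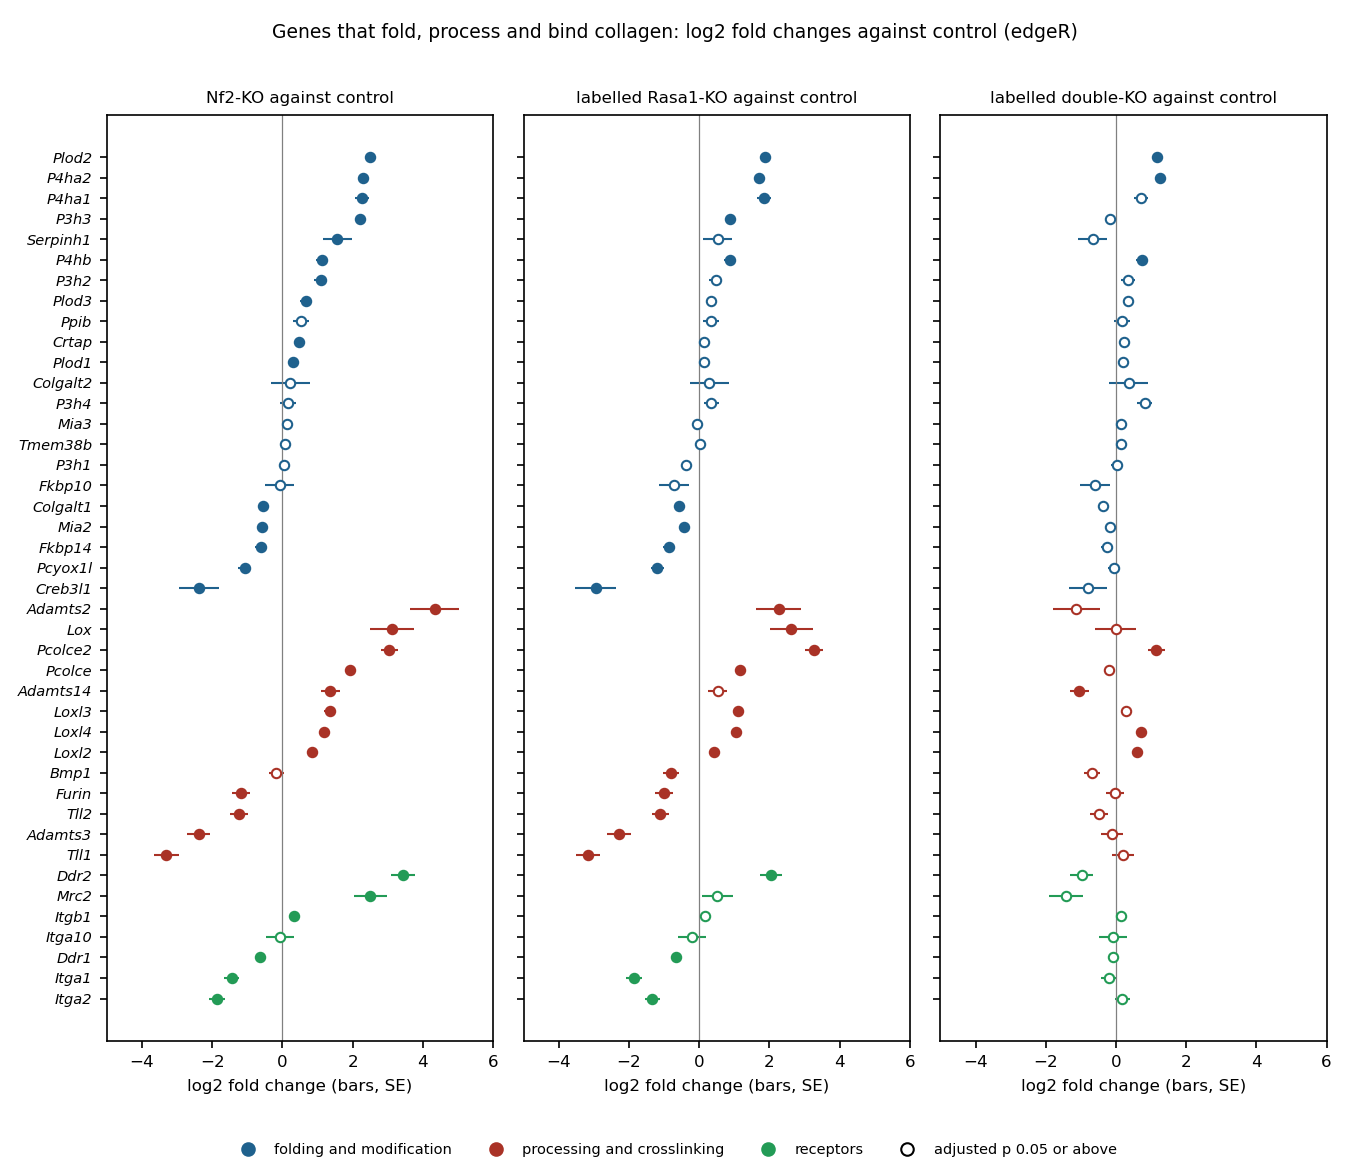
Log2 fold change against control (x axis, edgeR, bars for SE) of 42 genes that fold, process or bind collagen, coloured by list and filled where the adjusted p is under 0.05. *Adamts2*, *Lox*, *Pcolce2* and *Ddr2* lie right of 2 and *Tll1* and *Creb3l1* left of -2 in both groups with low *Nf2*.

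The labelled tissue was checked against marker genes. The keratin genes *Krt8*, *Krt18* and *Krt19* were abundant in every library. They made up most of the sum over 8 of 9 listed epithelial markers, which was 4062 to 5616 TPM. *Cldn4* was at 0.642 TPM or less. *Epcam* was at 35.99 to 56.63 TPM in control and lower in each edited group. It was at 6.081 to 7.277 TPM in Nf2-KO, 10.99 to 12.49 in labelled Rasa1-KO and 12.14 to 28.74 in labelled double-KO. *Krt7* was instead above control in both groups with low *Nf2*. *Cdh1*, which encodes E-cadherin, was at 99.8 to 232 TPM in control, 26.7 to 37.6 TPM in Nf2-KO, 35.1 to 45.1 TPM in the labelled Rasa1-KO group and 93.5 to 114 TPM in the labelled double-KO group. Of 5 listed leukocyte markers 3 were in the tables, and they summed to 5.60 to 12.7 TPM in control, 14.9 to 17.6 TPM in Nf2-KO, 17.5 to 20.7 TPM in the labelled Rasa1-KO group and 6.33 to 19.2 TPM in the labelled double-KO group. Nearly all of this was *Cd68*, a lysosomal protein gene, at 5.29 to 20.2 TPM, while *Csf1r* was at 1.14 TPM or less and *Ptprc*, the defining leukocyte marker, at 0.171 TPM or less. The leukocyte sum was above every control library in both groups with low *Nf2*, and its part in the chain levels was not tested. The endothelial markers *Pecam1* and *Kdr* summed to 0.727 TPM or less.

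Fibroblast and pericyte markers moved with the fibrillar chains in part. The 7 of 11 listed genes in the tables summed to 22.8, 86.6 and 103 TPM in control, 111, 121 and 108 TPM in Nf2-KO, 38.8, 39.9 and 35.8 TPM in the labelled Rasa1-KO group, and 14.99, 19.3 and 23.9 TPM in the labelled double-KO group. *Pdgfra* was at 0.0367, 1.15 and 1.78 TPM in control, 14.8 to 17.9 TPM in Nf2-KO, 5.23 to 7.25 TPM in the labelled Rasa1-KO group and 0.0507 to 0.216 TPM in the labelled double-KO group, an order like that of *Col1a2*. *Dcn* was instead highest in control 1 and 2, at 59.96 and 76.8 TPM, against 19.96 TPM in the unnumbered control library, 24.4 to 28.6 TPM in Nf2-KO, 15.4 to 16.5 TPM in the labelled Rasa1-KO group and 8.23 to 10.2 TPM in the labelled double-KO group. *Pdgfrb* was above control in both groups with low *Nf2*, at 19.2 to 24.3 and 7.39 to 8.73 TPM. *Dpt* and *Fap* were above control only in Nf2-KO, at 41.1 to 47.2 and 2.59 to 2.85 TPM. *Rgs5* went the other way, at 0.573 to 1.22 TPM in control, 0.0121 to 0.0175 in Nf2-KO and 0.0269 to 0.04025 in labelled Rasa1-KO. *Acta2* was highest in labelled double-KO, at 3.52 to 9.72 TPM, and lowest in labelled Rasa1-KO, at 0.340 to 0.529 TPM. The unnumbered control library was the lowest control for the sum of this list. *Thy1*, *Lum*, *Pi16* and *Cspg4* were not analysed here. The part of such cells in the chain levels was not tested.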

How the data were processed

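Total RNA of S1 tumorspheres was sequenced as stranded, ribosome-depleted libraries (TruSeq Stranded Total RNA) with paired ends on a NovaSeq instrument. The authors trimmed reads with Trimmomatic 0.38, mapped them to mm10 with HISAT2 2.1.0 and SAMtools 1.9, and assembled and quantified transcripts with StringTie 2.1.3b against RefSeq. The authors deposited, for each library, a read count per gene (not normalized), TPM, FPKM and a log2 value of normalized counts, after removal of genes with a count of 0 in any library. Counts were used for tests and TPM for levels, while the deposited FPKM and log2 values were not used.

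Groups were taken from the labels, with 3 libraries each. Depth ranged from 43818139 to 96674463 counts per library. Protein-coding genes took 40.71% to 55.52% of the TPM, so levels in TPM also depend on the remaining RNAs. Counts were tested with edgeR 4.0.16 in R 4.3.3 (filterByExpr, TMM, robust quasi-likelihood test, 1 fit over all 12 libraries), which tested 18053 of 18926 genes. P-values were Benjamini-Hochberg adjusted over all tested genes, and a fold change is on the log2 scale. edgeR gives no SE for it. The SE was derived as the size of the log2 fold change over the square root of the test's F statistic. The alternatives were DESeq2 1.42.0, RLE size factors, no filter, protein-coding genes only, only the groups compared, the study's rule, limma 3.58.1 on log2(TPM + 1) and log2(TPM + 0.1), replicate blocks, and leaving out libraries. The statistics were tested on simulated data first.

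Chains were matched by symbol. Chains with a mean of at least 1 TPM or a call were named, with values per library for those of at least 1 TPM or with a called change of at least 2-fold. Of the enzyme, protease and receptor lists, the called genes with at least a 2-fold change were named, up to 3 higher and 3 lower per comparison, largest first. Members and lists were chosen with earlier results of these data known. Promoters were read from a RefSeq table on GRCm38.p6, in which 23 of the 29 chains had an entry. Library numbers were checked for pairing by the correlation of deviations from group means. Numbers in the titles gave r of -0.379 to 0.399 between labelled double-KO and control. Those in the names of the deposited tables gave 0.313 to 0.626 over 3 pairs there. The highest was library 1 labelled double-KO with the unnumbered control library. Of pairs with different numbers in those names, library 2 with control 2 gave 0.399 and library 3 with control 1 gave 0.258. The rest gave -0.560 to -0.379, so matched and unmatched pairs overlapped.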

Additional observations from a re-analysis of the deposited data

How the results depend on the processing

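Of 55 called chain changes, 29 kept direction and call in all 22 alternative fits, and over 1210 recomputed values 1070 kept both, 138 lost the call and 2 reversed. By the study's rule 37 of the 55 passed, 21 of them among the 29. Reversed was *Col16a1* in labelled Rasa1-KO against control, at -0.073 on log2(TPM + 1) and -0.077 on log2(TPM + 0.1). The number of chains called in Nf2-KO against control was 16, and 15 to 23 when single libraries were left out. For labelled Rasa1-KO against control it was 15, with 9 in a fit of only the groups compared and 10 to 20 without single libraries. The fit of only these groups called 2041 genes higher and 2343 lower, against 3535 and 3987 by edgeR over all libraries. For labelled double-KO against control it was 2, with 4 by DESeq2, 1 by limma on log2(TPM + 0.1), 0 on log2(TPM + 1), 0 in a fit of only the groups compared and 0 to 12 without single libraries. For labelled double-KO against labelled Rasa1-KO it was 16, with 10 by the study's rule and 10 to 17 without single libraries. For labelled Rasa1-KO against Nf2-KO it was 6, with 14 by DESeq2, 12 on log2(TPM + 1), 18 in a fit of only the groups compared and 2 to 17 without single libraries. A replicate block by the number in the titles gave 3 for that comparison, and a replicate block by the number in the table names gave 14 there and 5 for labelled double-KO against control. The block by table names gave 15 higher and 6 lower in Nf2-KO against control. It gave 10 higher and 9 lower in labelled Rasa1-KO against control. Those numbers were not found to pair the libraries of either comparison. The number of all genes called moved with the settings too. For labelled double-KO against control it was 718 higher and 436 lower by edgeR over all libraries, and 1271 and 836 by DESeq2. It was 264 and 1589 on log2(TPM + 1) and 5 and 5 with only the groups compared. For labelled Rasa1-KO against Nf2-KO it was 343 and 311 by edgeR over all libraries and 646 and 782 by DESeq2. With only the groups compared it was 2173 and 2498.

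Without both the unnumbered control library and labelled double-KO 1, the counts were 23 for labelled Rasa1-KO and 14 for labelled double-KO, each against control. They were 21 for labelled double-KO against labelled Rasa1-KO and 18 for labelled Rasa1-KO against Nf2-KO. Of 18169 tested genes, the same fit called 5898 higher and 6058 lower for labelled Rasa1-KO and 3106 and 2303 for labelled double-KO, each against control. It called 4649 and 4472 for labelled double-KO against labelled Rasa1-KO, and 1596 and 1918 for labelled Rasa1-KO against Nf2-KO. This alternative, the block by table names and the list counts without single control libraries were chosen after seeing the data. Rescaled to protein-coding genes, the summed level of the chains was 2335 TPM in control, 6263 in Nf2-KO, 2723 in labelled Rasa1-KO and 2212 in labelled double-KO. Where settings changed a count, the cause was not tested. Depth limits the chains with few reads, such as *Col25a1*, *Col8a2* and *Col1a2* outside the groups with low *Nf2*.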
